A study of Arabidopsis thaliana with 6 samples.

Results

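WRKY transcription factors were followed in gene counts from fbn6-1 mutant and wild-type Arabidopsis thaliana. The 41 genes were picked by locus identifier as members of the WRKY family, and all 41 were listed among the 36917 genes counted. They are 41 of the 72 WRKY genes named in the RefSeq annotation of TAIR10.1, and the other 31 were used for comparison. The fbn6-1 plants carried the GK_159E10 allele in the Col-0 ecotype, and the wild type was Col-0. FBN6 encodes FIBRILLIN6, which belongs to the fibrillins, a family of lipid-associated proteins of the plastid. Both groups were 3 weeks old and were grown on soil in the greenhouse with 16 h of light and 8 h of dark under a fluence of some 120 µmol photons m-2 s-1. Each genotype had 3 libraries, numbered 1, 2 and 3 for fbn6-1 and 2, 3 and 4 for wild type, made from total RNA. The mutant was represented by a single insertion allele, and the labels do not say whether the libraries of a genotype came from separate plants or pools, so p-values here speak only of the scatter among these 6 libraries, part of which may be technical.

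WRKY proteins are plant transcription factors named after a conserved run of amino acids in their DNA-binding domain. Most bind the W-box, a short promoter element with the core TTGAC, and many WRKY promoters carry W-boxes themselves, so that WRKY factors can act on one another. In leaves they are best known for pathogen defence, wounding and stress responses and senescence, downstream of MAP kinase cascades and of salicylic acid, jasmonate and ethylene. The family is divided by its domains: group I proteins have a domain at either end, group II proteins have a single domain and are split into IIa to IIe, and group III proteins have a zinc finger of a different kind. In translations of the RefSeq coding sequences, 11 of the 41 members held 2 WRKY domains, which are the group I members, and 30 held 1, of which 7 had the group III type of finger.

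Levels are given as CPM, the usual depth-scaled count, here on library sizes scaled with TMM factors, and levels of different genes are compared only per kb of RefSeq exon length. Library totals lay between 8668956 and 12287197 counts, of which plastid and mitochondrial genes took 59.7% to 62.5%, leaving 3257770 to 4955128 nuclear counts per library. FBN6 itself had 7, 3 and 3 counts in the fbn6-1 libraries and 1845, 1557 and 2201 in the wild-type libraries (log2 fold change -8.82, adjusted p = 4.23e-13, edgeR). The material was labelled only as plants. The 4 leaf genes summed to 6240 to 6730 CPM in fbn6-1 and 7420 to 8330 CPM in wild type, and each was lower in every fbn6-1 library. RCA, GAPB and CAO, with log2 fold changes of -0.28, -0.15 and -0.31, were not called, and the part of this shift in the WRKY values was not tested. GLK1, a regulator of chloroplast development, had 25.8, 25.4 and 31.4 CPM in fbn6-1 and 63.9, 67.3 and 63.7 CPM in wild type, and it fell by 1.24 on the log2 scale (adjusted p = 2.09e-05, edgeR). The defining markers of roots were at or near 0: 6 root genes together reached 1.02 to 1.06 CPM in fbn6-1 and 0 to 0.359 CPM in wild type, and 2 of them had no count in any library. The summed level of 5 flower genes was 0.826 to 0.909 CPM in fbn6-1 and 1.05 to 1.36 CPM in wild type with 1 gene at 0 throughout, and that of 3 pollen genes was 0.213 to 0.375 CPM in fbn6-1 and 0 to 0.12 CPM in wild type, again with 1 gene at 0. In such bulk libraries, fewer cells of a type and less RNA per cell cannot be told apart.

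Promoters of 3 members are shown for which the libraries of the genotypes did not overlap, with every fbn6-1 library above every wild-type library: WRKY33 (AT2G38470), WRKY40 (AT1G80840) and WRKY11 (AT4G31550). Each run is the 300 bases before the annotated gene start, read 5′ to 3′ on the strand of the gene from the RefSeq genome, build TAIR10.1, and capitals mark the W-box core, as TTGAC or, on the other strand, GTCAA. The windows are chr2:16107935-16108234 (plus strand) for WRKY33, chr1:30383261-30383560 (plus strand) for WRKY40 and chr4:15291935-15292234 (minus strand) for WRKY11, and no other annotated gene reached into them.
WRKY33: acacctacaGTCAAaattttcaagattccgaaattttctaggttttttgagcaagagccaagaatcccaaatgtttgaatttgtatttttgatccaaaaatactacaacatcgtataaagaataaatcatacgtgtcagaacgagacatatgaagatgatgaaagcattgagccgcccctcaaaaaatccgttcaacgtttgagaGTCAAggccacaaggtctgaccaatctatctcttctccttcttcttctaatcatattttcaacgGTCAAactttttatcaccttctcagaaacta
WRKY40: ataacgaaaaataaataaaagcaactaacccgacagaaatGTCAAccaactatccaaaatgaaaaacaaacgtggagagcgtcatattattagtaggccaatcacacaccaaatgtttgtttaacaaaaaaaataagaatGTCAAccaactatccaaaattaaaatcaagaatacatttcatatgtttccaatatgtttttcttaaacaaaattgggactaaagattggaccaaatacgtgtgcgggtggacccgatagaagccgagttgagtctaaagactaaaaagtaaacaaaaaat
WRKY11: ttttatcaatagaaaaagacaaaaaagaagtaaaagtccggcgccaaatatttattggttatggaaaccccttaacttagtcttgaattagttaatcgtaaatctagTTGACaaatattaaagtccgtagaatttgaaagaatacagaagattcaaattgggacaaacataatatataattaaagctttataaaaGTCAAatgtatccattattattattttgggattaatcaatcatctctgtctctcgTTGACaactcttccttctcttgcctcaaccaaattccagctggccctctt
The WRKY33 window held 3 cores, 291, 95 and 31 bases before the start, all read as GTCAA. The WRKY40 window held 2, at 260 and 160 bases, also as GTCAA. WRKY11 had 3 cores, at 193, 105 and 50 bases, on both strands. A match is a description of the letters and shows no binding.

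W-box cores were found in more WRKY promoters than in promoters at large. At least 1 core stood in 28 of the 41 WRKY windows (68.3%), against 50.4% of the windows of 27443 nuclear protein-coding genes. At least 2 stood in 12 of the 41 (29.3%), against 17.9% of all windows, and at least 3 in 6 of the 41 (14.6%), against 5.07%. These shares are descriptions of the annotation and were not tested.

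Of the 41 members, 24 had enough counts in these plants to be tested, and 17 did not pass the filter on low counts (edgeR's filterByExpr, minimum count 10). Among the 24, the mean level per kb over all 6 libraries ran from 0.936 for WRKY69 to 25.2 for WRKY33. The strongest 5 were WRKY33, WRKY70, WRKY15, WRKY40 and WRKY53, which belong to 4 family groups. WRKY33, which controls camalexin synthesis and resistance to necrotrophic fungi, averaged 32.1 ± 3.55 CPM per kb in fbn6-1 and 18.4 ± 3.88 CPM per kb in wild type (SD, n = 3 each, as for all levels here). WRKY70, a switch between salicylic acid and jasmonate responses, averaged 21.7 ± 5.31 CPM per kb in fbn6-1 and 18.01 ± 3.84 CPM per kb in wild type. In fbn6-1 WRKY33 stood above WRKY70 by more than the SD of either gene, while in wild type their means differed by less than either SD.

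The means of the next 3 stood in a different order in each genotype. WRKY15, a factor of osmotic and oxidative stress responses, averaged 13.8 ± 0.85 CPM per kb in fbn6-1 and 14.1 ± 4.70 CPM per kb in wild type. WRKY40, a repressor of basal defence genes and of abscisic acid responses, averaged 16.9 ± 5.19 CPM per kb in fbn6-1 and 7.65 ± 2.20 CPM per kb in wild type. WRKY53, a regulator of leaf senescence, averaged 13.9 ± 1.38 CPM per kb in fbn6-1 and 9.99 ± 3.13 CPM per kb in wild type. In fbn6-1 the means of these 3 genes lay closer together than the SD of WRKY40, while in wild type WRKY15 and WRKY40 lay further apart than the SD of either. Below them came WRKY11, at 9.29 ± 1.12 CPM per kb in fbn6-1 and 6.78 ± 1.16 CPM per kb in wild type, and the remaining 18 tested members had means over all libraries of 0.936 to 6.85 CPM per kb. In the order of the 24 mean levels, 3 of the 23 neighbouring pairs were further apart than the larger of their SDs over the 6 libraries: WRKY70 over WRKY15, WRKY53 over WRKY11 and WRKY21 over WRKY2.

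Comparing fbn6-1 with wild type, WRKY33 and WRKY40 were called higher and no tested WRKY member was called lower. These 2 are 8.33% of the 24 tested members. Over all 16584 tested genes, 3.82% passed an adjusted p of 0.05 in either direction by edgeR's quasi-likelihood test with Benjamini-Hochberg adjustment, 1.48% as higher in fbn6-1 and 2.34% as lower. DESeq2 and limma-voom also called 2 members higher and 0 lower, where DESeq2 called 1.22% of all tested genes higher and 2.03% lower, and limma-voom 1.42% higher and 2.38% lower. At an unadjusted p under 0.05, 0 members were lower in edgeR and in DESeq2 and 1 in limma-voom, and 5 were higher in each tool. By edgeR 9.80% of all tested genes were lower and 8.04% higher at that threshold. The median log2 fold change of the 24 was 0.09, against -0.0037 for all tested genes, and 14 of the 24 (58.3%) were above 0, against 49.5%.

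WRKY33 (AT2G38470, chromosome 2, group I) had 64.3, 72.7 and 58.4 CPM in the fbn6-1 libraries and 28.6, 39.1 and 44.04 CPM in the wild-type libraries. Every fbn6-1 library was above every wild-type library. Its means were 65.1 ± 7.20 CPM in fbn6-1 and 37.2 ± 7.87 CPM in wild type, a 1.75-fold difference. The log2 fold change was 0.80 (SE 0.14, 95% interval 0.50 to 1.11, adjusted p = 0.00618), and without fbn6-1 replicate 2, its highest library, it was 0.72 with an adjusted p of 0.0503. The gene overlaps a lncRNA, AT2G08965, by 272 bases, of which 23 lie in exons of both genes. It also overlaps AT2G38480 by 26 bases. Both neighbours are on the opposite strand, and whether counting used strand is not given in the sources used here. Those neighbours had log2 fold changes of 0.28 (adjusted p = 0.584) and -0.67 (adjusted p = 0.187).

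WRKY40 (AT1G80840, chromosome 1, group IIa) had 17.04, 30.1 and 19.9 CPM in the fbn6-1 libraries and 7.55, 13.3 and 9.58 CPM in the wild-type libraries. The groups again did not overlap, and fbn6-1 replicate 2 was far above the other mutant libraries. Its means were 22.3 ± 6.88 CPM in fbn6-1 and 10.1 ± 2.92 CPM in wild type, a 2.21-fold difference. The log2 fold change was 1.14 (SE 0.22, 95% interval 0.67 to 1.62, adjusted p = 0.0106). It was 0.87 with an adjusted p of 0.0624 without fbn6-1 replicate 2, and 0.97 with an adjusted p of 0.055 without wild-type replicate 2. The gene shares 51 bases with AT1G80850 on the opposite strand, whose log2 fold change was -0.42 (adjusted p = 0.314).

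The 2 genes gave most of the difference in total WRKY signal. Since they were picked for being called higher in these same libraries, leaving them out was bound to shrink that difference. The 41 members together came to 304, 336 and 299 CPM in fbn6-1 and 223, 289 and 260 CPM in wild type, with no overlap between the groups. With WRKY33 and WRKY40 left out, the sums were 223, 234 and 221 CPM in fbn6-1 and 187, 237 and 206 CPM in wild type, and the groups overlapped.

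**Figure D1:**
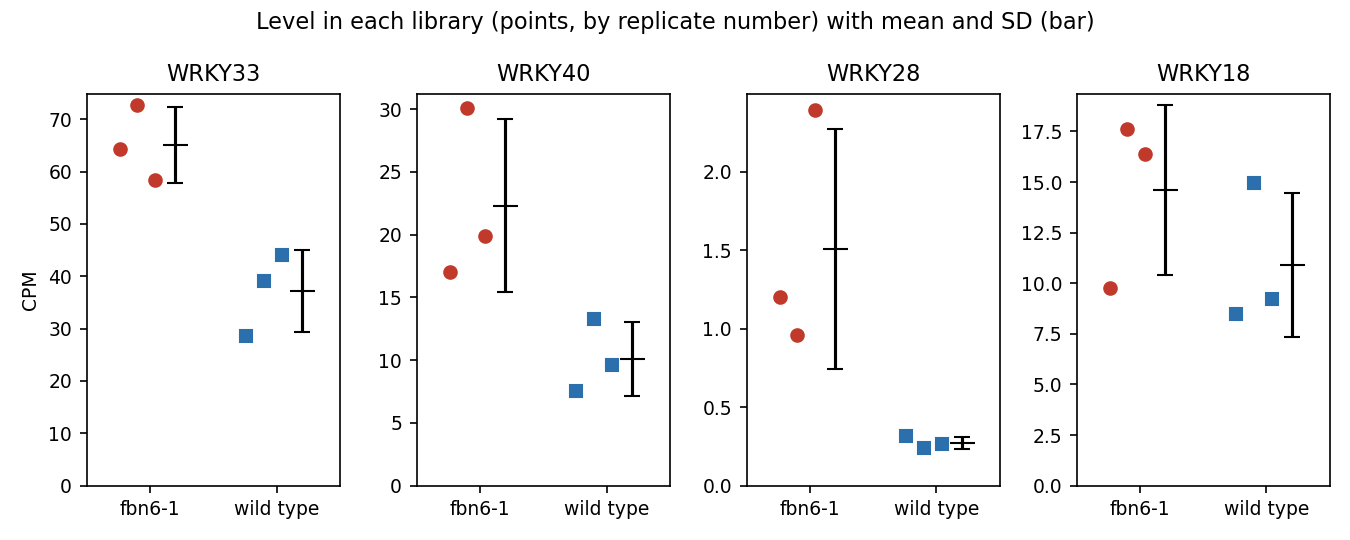
CPM of WRKY33, WRKY40, WRKY28 and WRKY18 in each library, with fbn6-1 replicates 1, 2 and 3 on the left and wild-type replicates 2, 3 and 4 on the right of each panel; points are libraries and bars are the mean with its SD. The libraries do not overlap for WRKY33, WRKY40 and WRKY28, whereas for WRKY18 the fbn6-1 library at 9.76 CPM lies inside the wild-type range of 8.49 to 14.97 CPM.

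The libraries of the genotypes did not overlap for 6 of the 24 tested members, 3 in each direction. Over all tested genes this was so for 10.9% with fbn6-1 higher and 12.1% with fbn6-1 lower, so the share among WRKY genes was close to the background. Besides WRKY33 and WRKY40 the third member with fbn6-1 higher was WRKY11, which with WRKY17 holds back basal resistance to bacteria. WRKY11 had 18.2, 17.9 and 14.5 CPM in fbn6-1 and 10.1, 12.7 and 14.2 CPM in wild type, with the lowest mutant library just above the highest wild-type library. Its log2 fold change was 0.45 (SE 0.15, adjusted p = 0.126), and it was the only member with an adjusted p between 0.05 and 0.2. The 3 members with fbn6-1 lower, named after their values were seen, were WRKY1 (log2 fold change -0.21, adjusted p = 0.437), WRKY39 (-0.29, adjusted p = 0.40) and WRKY4 (-0.35, adjusted p = 0.292).

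By family group, the 2 tested members of IIa and the 4 of III all had values above 0, as did the 1 tested member each of IIb and IIc. In IId 5 of the 6 were below 0. Over all tested genes 49.5% were above 0. In group IIa, WRKY40 was tested with WRKY18, its partner in partly redundant repression of defence, and the third member, WRKY60, was below the filter. WRKY18 had 9.76, 17.6 and 16.4 CPM in fbn6-1 and 8.49, 14.97 and 9.23 CPM in wild type. The groups overlapped, and its log2 fold change of 0.41 (SE 0.24, adjusted p = 0.390) was not called.

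Group III holds WRKY70 and its closest relative WRKY54, both regulators of salicylic acid responses and senescence, with WRKY53 and WRKY46. The 4 tested members had log2 fold changes of 0.28 to 0.65 with a median of 0.43, and none was called. Without wild-type replicate 2 the values were 0.37 for WRKY46, 0.24 for WRKY53, 0.23 for WRKY54 and 0.11 for WRKY70. Without fbn6-1 replicate 1 or 2 that of WRKY54 was 0.22 or 0.18, that of WRKY70 was 0.11 without fbn6-1 replicate 1, and that of WRKY46 was 0.41 without fbn6-1 replicate 2. With no low-count filter WRKY46 (adjusted p = 0.0352) and WRKY53 (adjusted p = 0.0362) were called. WRKY53 (AT4G23810) had 21.5, 18.7 and 22.8 CPM in fbn6-1 and 9.96, 16.2 and 19.3 CPM in wild type. Wild-type replicate 4 reached into the mutant range, and its log2 fold change was 0.47 (SE 0.19, 95% interval 0.07 to 0.87, adjusted p = 0.201). WRKY53 overlaps AT4G23800 on the opposite strand by 341 bases, and that gene lay at 0.43 (adjusted p = 0.262).

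WRKY70 (AT3G56400) had 38.5, 33.9 and 23.3 CPM in fbn6-1 and 20.02, 28.99 and 30.4 CPM in wild type. The lowest mutant library lay within the wild-type values, and the log2 fold change was 0.28 (SE 0.18, 95% interval -0.11 to 0.66, adjusted p = 0.472). WRKY46, which acts with WRKY54 and WRKY70 and was singled out after its values were seen, had 7.06, 10.8 and 6.82 CPM in fbn6-1 and 2.93, 6.95 and 5.80 CPM in wild type. Its log2 fold change of 0.65 (SE 0.27, adjusted p = 0.217) was the largest in the group. WRKY54 lay at 0.39 (SE 0.36, adjusted p = 0.639).

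Group IId, whose proteins bind calmodulin, was tested in full. Its 6 members had log2 fold changes of -0.41 to 0.45 with a median of -0.16, and 5 of the 6 were below 0, with WRKY11 the exception. WRKY15 (AT2G23320) had 16.7, 18.8 and 17.6 CPM in fbn6-1 and 11.6, 23.6 and 18.9 CPM in wild type. The wild-type libraries spread on both sides of the mutant libraries, and its log2 fold change was -0.02 (SE 0.19, 95% interval -0.44 to 0.39, adjusted p = 0.966). WRKY17, the closest relative of WRKY11, showed a difference of -0.08 on the log2 scale (SE 0.17, adjusted p = 0.854), and the lowest value of the group was that of WRKY7, -0.41 (SE 0.21, adjusted p = 0.332). The values of WRKY15 and WRKY17 were above 0, at 0.10 and 0.05, when libraries were scaled by their totals without TMM, a change that moved the median of all tested genes to 0.13.

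Group I was split evenly around 0. Of its 8 tested members 4 were above and 4 below 0, over a range of -0.35 to 0.80 with a median of 0.01, and WRKY33 was the only one called; WRKY2, WRKY20 and WRKY32 lay at 0.04, 0.07 and 0.25. WRKY25, which acts with WRKY33 and WRKY26 in heat and salt tolerance, had 7.81, 8.84 and 15.2 CPM in fbn6-1 and 8.91, 22.9 and 8.44 CPM in wild type. Replicate 3 was the highest library of both genotypes, and the log2 fold change of -0.33 (SE 0.34, adjusted p = 0.680) came with an interval of -1.05 to 0.39. WRKY3 and WRKY4, which share a role in resistance to necrotrophic fungi, had log2 fold changes of -0.02 and -0.35.

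The other groups had few tested members. WRKY6, a regulator of senescence and of phosphate transport and the IIb gene among the 41, showed a difference of 0.11 on the log2 scale (SE 0.21, adjusted p = 0.836). WRKY48 was the tested member of IIc, with 0.826, 3.41 and 3.64 CPM in fbn6-1 and 1.89, 3.59 and 0.879 CPM in wild type. Its interval of -0.82 to 1.41 was the widest of the 24. In IIe, WRKY22, a factor downstream of flagellin perception, lay at 0.24 (SE 0.20, adjusted p = 0.590) and WRKY69 at -0.59 (SE 0.40, adjusted p = 0.489).

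**Figure D2:**
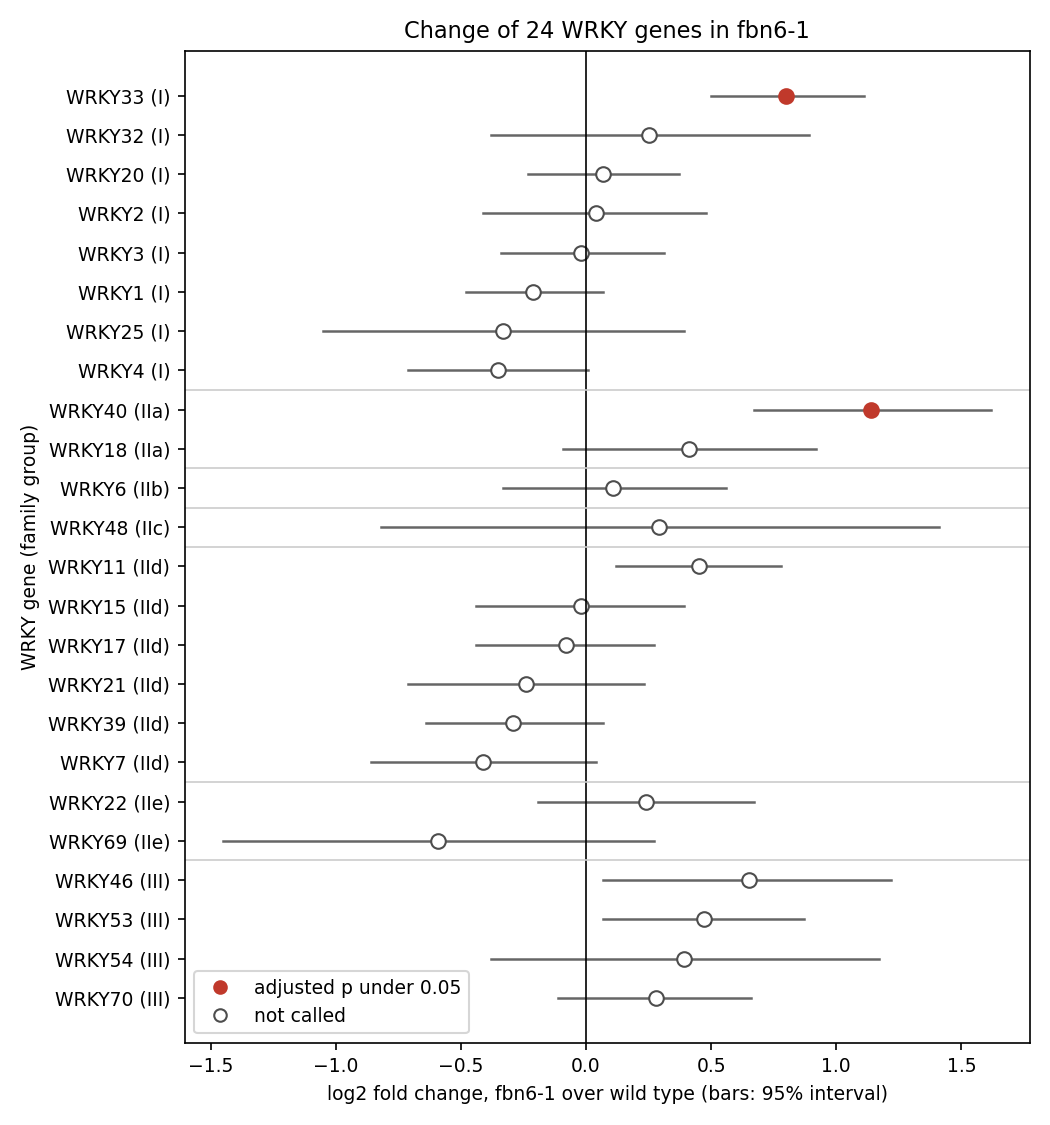
Log2 fold change of the 24 tested WRKY genes, fbn6-1 over wild type, with 95% intervals as bars, grouped by family group from I to III; filled points have an adjusted p under 0.05. WRKY33 (0.80) and WRKY40 (1.14) are the filled points, all 4 group III genes lie between 0.28 and 0.65, and 5 of the 6 IId genes lie below 0.

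The spread between libraries of a genotype differed widely among the members. The median coefficient of variation of the 24 was 18.4% in fbn6-1 and 21.5% in wild type, against 12.8% in fbn6-1 and 15.4% in wild type over all tested genes, whose count levels were not matched to the members. In fbn6-1, 11 of the 24 lay below the median of all genes, and in wild type 7 did. WRKY1, WRKY39 and WRKY15 had the lowest values in fbn6-1, at 5.26%, 5.47% and 6.16%. Within fbn6-1, replicate 2 was the highest library for 12 of the 24 members, against 33.9% of all tested genes, and replicate 1 was the lowest for 10 (41.7%), against 30.9%. Within wild type, replicate 2 was the lowest library for 10 (41.7%), against 30.6%, and the highest for 9 (37.5%), against 31.9%. Wild-type replicate 3 was the lowest for 5 (20.8%), against 38.2%, and the highest for 10 (41.7%), against 36.2%. Wild-type replicate 4 was the lowest for 9 (37.5%), against 31.2%, and the highest for 5 (20.8%), against 31.9%.

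The number of W-box cores was set beside the change of the tested members. The 9 members with no core had log2 fold changes of -0.59 to 0.41 with a median of -0.21, and 3 of them were above 0. The 7 with 1 core had a median of 0.24, the 5 with 2 cores a median of -0.02, and the 3 with at least 3 cores, which were WRKY33, WRKY11 and WRKY32, ran from 0.25 to 0.80. The medians of all tested genes with 0, 1, 2 and at least 3 cores were 0.00, -0.01, -0.02 and 0.01, and called increases were 1.40%, 1.76%, 1.58% and 1.33% of these genes. WRKY40, with 2 cores, had the largest change of the tested members. This is a description of a few genes in each class and was not tested.

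The 17 members below the filter had 0 to 54 counts in all 6 libraries together, and no library gave more than 21. WRKY75, known from phosphate starvation and root hair growth, had no count in any library. A further 8 members had fewer than 10 counts in all, among them WRKY12 and WRKY34, known from stem pith and pollen. WRKY12 had 7, 0 and 0 counts in fbn6-1 and 0, 1 and 0 in wild type. WRKY34 had 3, 2 and 0 counts in fbn6-1 and 2, 1 and 0 in wild type. Those with 10 or more counts in all were WRKY28, WRKY29, WRKY26, WRKY8, WRKY50, WRKY60, WRKY44, which acts in trichomes and the seed coat, and WRKY45, which acts in phosphate uptake. By family group, the members below the filter included all of IIc except WRKY48. None of the 17 was tested in the main fit, so no difference between genotypes was established for them at this depth.

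WRKY28 (AT4G18170), for which binding to the promoter of the salicylic acid gene ICS1 has been reported, stood out among the 17 and was singled out after its values were seen. It had 16, 9 and 21 counts in fbn6-1 and 3, 2 and 3 counts in wild type, and averaged 1.51 ± 0.764 CPM in fbn6-1 and 0.273 ± 0.0382 CPM in wild type. Every mutant library was above every wild-type library. The pooled 46 counts in fbn6-1 and 8 in wild type gave a ratio of 5.34 per scaled library size, with an exact 95% interval of 2.50 to 13.1 that covers counting error only. When all genes with a count were fitted, its log2 fold change was 2.39 (SE 0.58, adjusted p = 0.00202), and in that fit 5 members were called higher and 0 lower, with 1.75% of its 28860 genes higher and 2.52% lower. Since the gene was picked for its separation, these values describe it and support nothing further. The summed root and pollen markers were also higher in fbn6-1 while staying near 0, mostly through 1 gene each. PYK10 had 29 counts in fbn6-1 and 3 in wild type, and AGL66 had 7 and 0. IRT1, another root gene, had 1 and 2 counts, and MYB97, another pollen gene, had 2 and 2. The part of these markers in the WRKY28 count was not tested.

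The other low members showed no such separation. WRKY29, which follows flagellin perception with WRKY22, had 8, 10 and 15 counts in fbn6-1 and 9, 5 and 5 in wild type. WRKY50, which acts with WRKY51 in repressing jasmonate signalling, had 4, 3 and 5 counts in fbn6-1 and 10, 4 and 12 in wild type. WRKY60 had 6, 5 and 5 counts in fbn6-1 and 3, 6 and 6 in wild type, so the third IIa gene was present at a low level in both genotypes.

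**Figure D3:**
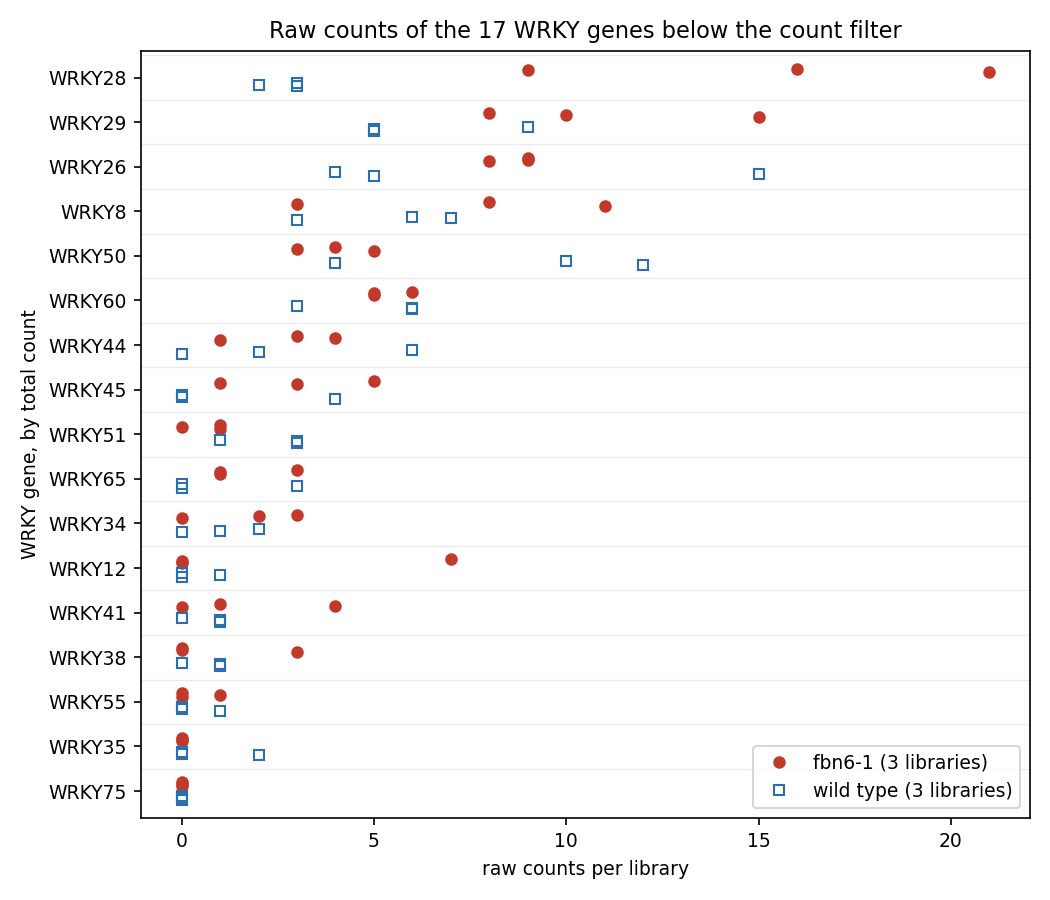
Raw counts per library of the 17 WRKY genes below the count filter, ordered by total count, with filled circles for the 3 fbn6-1 libraries and open squares for the 3 wild-type libraries. WRKY28 at the top has 9 to 21 counts in fbn6-1 and 2 or 3 in wild type, and WRKY75 at the bottom is at 0 in all 6 libraries.

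How reads that match several genes were counted is not stated, so identical stretches between members were measured. The longest identical run between transcripts of members was 36 bases, for WRKY11 with WRKY17 and for WRKY41 with WRKY53, followed by 35 bases for WRKY54 with WRKY70. WRKY33 shared at most 22 bases with any other member, WRKY40 at most 17 and WRKY28 at most 20. The read length is not given in the sources used here. In all, 10 of the 41 members overlap an annotated gene on the opposite strand.

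Genes that act with WRKY factors were looked at in the same fit, in lists chosen with earlier results of these data known. For every list the background is the share over all tested genes, 1.48% called higher and 2.34% lower, with a median log2 fold change of -0.0037. No list was tested as a set. None of the 8 tested among the 31 other WRKY genes was called, and their median log2 fold change was 0.02, with WRKY30 highest at 0.95 (adjusted p = 0.152). Of the 9 kinases of the MAP kinase cascade above WRKY33, MPK3, which phosphorylates it, was the 1 called. MPK3 had 80.1, 89.8 and 75.3 CPM in fbn6-1 and 44.96, 68.3 and 49.3 CPM in wild type, and rose by 0.60 on the log2 scale (SE 0.14, adjusted p = 0.0311). The groups did not overlap, but the call was lost without any 1 library other than wild-type replicate 3, with an adjusted p of 0.0693 to 0.153. The median of the 9 kinases was -0.05.

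VQ proteins bind WRKY domains through a short motif and alter what the factors do. Of 11 listed, 9 were tested and 2 rose, AT1G78410 and AT2G22880, which the annotation used here lists only by locus. AT1G78410 had 3.83, 3.94 and 3.29 CPM in fbn6-1 and 0.943, 1.68 and 1.58 CPM in wild type, and its log2 difference was 1.39 (SE 0.29, adjusted p = 0.0149). AT2G22880 had 2.48, 3.41 and 3.07 CPM in fbn6-1 and 1.36, 1.56 and 0.879 CPM in wild type, and its log2 difference was 1.24 (SE 0.32, adjusted p = 0.0435). For neither gene did the genotypes overlap. AT1G78410 lost its call without fbn6-1 replicate 1 or 2 or wild-type replicate 2 (adjusted p of 0.0639 to 0.0727), and AT2G22880 lost it in DESeq2 (0.0876), limma-voom (0.0534) and 5 of the 6 fits with a library left out (0.0804 to 0.171). The median of the 9 was 0.51; SIB1 and MKS1, partners of WRKY33, lay at 0.62 (adjusted p = 0.434) and 0.53 (adjusted p = 0.385).

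Of 18 genes reported as bound or regulated by WRKY factors, 9 were tested, 1 was called higher and none lower, with a median of 0.09. EDS1, a hub of salicylic acid defence, had 27.5, 22.2 and 29.6 CPM in fbn6-1 and 12.8, 17.8 and 16.2 CPM in wild type, and its log2 fold change was 0.76 (SE 0.15, adjusted p = 0.0103). It has a near-identical neighbouring copy, so its counts are uncertain, and without fbn6-1 replicate 1 or 3 or wild-type replicate 2 the adjusted p was 0.0537 to 0.0649. CYP81F2, an indole glucosinolate enzyme, lay at 0.77 (adjusted p = 0.0557). The camalexin genes PAD3 and CYP71A13, which WRKY33 activates, were below the filter. PAD3 averaged 0.139 ± 0.179 CPM in fbn6-1 and 0.213 ± 0.131 CPM in wild type, and CYP71A13 0.579 ± 0.568 CPM and 0.163 ± 0.0877 CPM. Also below the filter, and singled out after their values were seen, were ORA59 and FRK1, with every fbn6-1 library lower. ORA59 had 4, 4 and 3 counts in fbn6-1 and 8, 8 and 7 in wild type. FRK1 had 2, 2 and 2 counts in fbn6-1 and 4, 12 and 4 in wild type.

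WRKY33 and WRKY40 are also known to respond within minutes to touch and wounding, so 10 other genes of that response were counted. Of the 9 tested, 2 rose: ERF5 by 0.92 (adjusted p = 0.0254) and ERF6 by 1.08 (adjusted p = 0.0435) on the log2 scale, and the median was 0.50. Both calls were lost without fbn6-1 replicate 1 or 2 or wild-type replicate 2, and that of ERF6 also without wild-type replicate 4, over adjusted p of 0.0808 to 0.20. In limma-voom ERF6 was not called either (1.05, adjusted p = 0.0716). The summed level of the 10 genes was 278, 364 and 308 CPM in fbn6-1 and 192, 341 and 251 CPM in wild type. It was highest in fbn6-1 replicate 2 and lowest in wild-type replicate 2, as were WRKY33 and WRKY40, and the groups overlapped. TCH3, which alone reached 113 to 235 CPM, carried that overlap. The other 9 genes, a subset taken after the values were seen, summed to 121, 179 and 122 CPM in fbn6-1 and 78.7, 105 and 104 CPM in wild type, with every fbn6-1 library higher. Because TCH3 was left out after it was seen to carry the overlap, this separation supports nothing further. The touch genes TCH2, TCH3 and TCH4 had log2 fold changes of -0.08, 0.10 and 0.32, while ZAT10 and ERF104 lay at 0.90 each. None of these was called. The part of this response in the WRKY33 and WRKY40 differences was not tested.

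**Figure D4:**
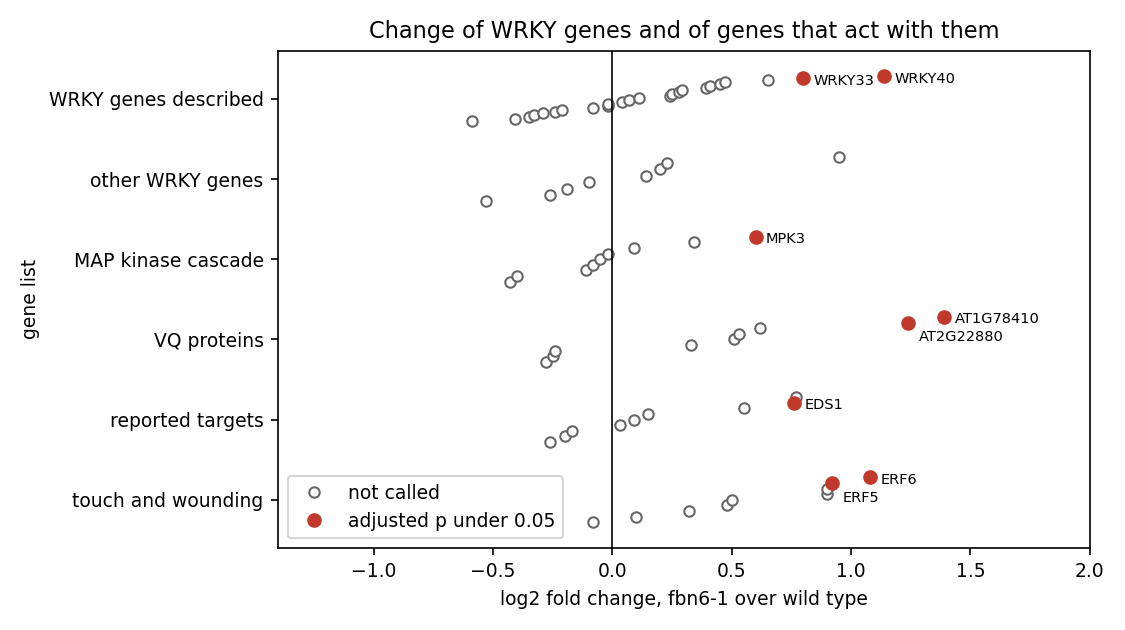
Log2 fold change, fbn6-1 over wild type, of the tested genes in 6 lists, each point a gene and filled points those with an adjusted p under 0.05. Called genes lie to the right of 0 in every list that has any: WRKY33 and WRKY40, MPK3 (0.60), the VQ genes AT1G78410 (1.39) and AT2G22880 (1.24), EDS1 (0.76), ERF5 (0.92) and ERF6 (1.08).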

How the data were processed

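Per the labels' protocols, total RNA was isolated with Trizol, purified on columns and prepared with Illumina Tru-Seq. The authors deposited raw counts per gene, 1 table per library. They were made with Trimmomatic, FastQC, TopHat2 2.1.1 and featureCounts on TAIR10, per the submitters' processing notes. Settings, annotation release, strand use and the treatment of reads that match several genes are not given in the sources here.

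Genotypes were compared over all genes with edgeR 4.0.16 in R 4.3.3: TMM factors, filterByExpr (minimum count 10, minimum total 15; 16584 genes kept), and the two-sided quasi-likelihood test with genotype as the term. P-values were adjusted after Benjamini-Hochberg across every tested gene, and genes under 0.05 were called. The common biological coefficient of variation was 0.124. CPM is on the TMM-scaled library size. Intervals of fold changes are 95% intervals of the fit. DESeq2 1.42.0, limma-voom (limma 3.58.1), other scalings and filters, a replicate block and leaving out each library were alternatives. The scripts were tested on simulated counts.

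Gene models, lengths, overlaps and promoter sequences come from RefSeq for TAIR10.1, and W-box cores were searched as TTGAC on both strands. Members, context lists and the naming rule (called members, the 5 highest per kb, members with an adjusted p of 0.05 to 0.2, and called context genes) were chosen with earlier results of these data known.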

Additional observations from a re-analysis of the deposited data

How the results depend on the processing

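No WRKY member was called lower under any alternative run. The number called higher was 2 under most. It was 5 with no low-count filter (WRKY28, WRKY33, WRKY40, WRKY46 and WRKY53), 1 at an adjusted p under 0.01 (WRKY33), and 1 to 3 when a library was left out; the cause was not tested. These were WRKY28 alone without fbn6-1 replicate 2, WRKY33 alone without wild-type replicate 2, and WRKY28, WRKY33 and WRKY40 without wild-type replicate 3. WRKY28 entered those fits through its fbn6-1 counts alone. It was also fitted by edgeR, and not called, in other fits with a library left out. Its adjusted p was 0.104 without fbn6-1 replicate 3, 0.0772 without wild-type replicate 2 and 0.0955 without wild-type replicate 4. WRKY33 was called in 13 of 14 alternatives and WRKY40 in 12 of 14. Some fold changes changed sign. Most of these were close to 0 in the main fit, but those of WRKY25 (-0.33) and WRKY48 (0.29) were not. Under library-size scaling WRKY3 was 0.12, WRKY15 0.10 and WRKY17 0.05. In limma-voom WRKY15 was 0.03. With a library left out, the log2 fold changes ranged from -0.12 to 0.13 for WRKY2, -0.08 to 0.05 for WRKY3, -0.08 to 0.30 for WRKY6, -0.26 to 0.20 for WRKY15, -0.21 to 0.07 for WRKY17, -0.02 to 0.16 for WRKY20, -0.66 to 0.26 for WRKY25 and -0.12 to 0.87 for WRKY48. Per kb of coding length the mean levels of WRKY70, WRKY33, WRKY15, WRKY53 and WRKY40 were 32.97, 32.8, 18.7, 18.5 and 17.9 CPM, which puts WRKY70 first and WRKY53 before WRKY40.

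Only replicate numbers 2 and 3 occur in both genotypes. In a fit with the replicate number as a block, the genotype difference therefore rests on those replicates alone. There, fbn6-1 replicate 1 and wild-type replicate 4 add nothing to it, so calls can be lost through the smaller number of libraries. Deviations of same-numbered libraries from their group means had correlations of -0.0345 and 0.0976, against -0.204 to 0.125 for the other pairs. Whether the numbers pair the samples is not stated in the sources used here, and these correlations cannot settle it. With the replicate number as a block, 2 members were called higher, WRKY33 at 0.96 (adjusted p = 0.0193) and WRKY40 at 1.28 (adjusted p = 0.0304), and 0 lower, and WRKY6 was -0.22, WRKY15 0.12 and WRKY20 -0.05. MPK3 (adjusted p = 0.233), AT1G78410 (0.137), AT2G22880 (0.284), EDS1 (0.0552) and ERF6 (0.236) were not called under the block.

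Nuclear genes held 3257770 to 4955128 counts per library. For the 17 members below the filter, shallow sequencing and low expression cannot be told apart.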
